A study of Homo sapiens with 4 samples.

Results

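The EGF receptors and their ligands were followed in PC3 prostate cancer cells after depletion of the DNA demethylase ALKBH3. The members were the 4 receptors EGFR, ERBB2, ERBB3 and ERBB4 and the 6 ligands AREG, EREG, HBEGF, TGFA, BTC and NRG1, chosen for the family they belong to. Every probe with such a symbol was taken, the symbol being assigned through the accession in the array annotation. All 10 genes were found, among 19102 named genes, on 18 of 34127 probes, of which 9 belong to receptors and 9 to ligands. PC3 is an established human line from a prostate carcinoma. Lentivirus delivered an shRNA to ALKBH3 (ALKBH3 shRNA) or, in the controls, one to GFP (control shRNA), and all cells, controls included, were then kept in puromycin until 48 h or 96 h of selection. Each of the 4 combinations was measured on 1 single-colour Agilent array, and the labels neither name the shRNA construct nor say that the time points came from separate cultures. The p-values therefore measure only the spread between these 4 arrays, with 2 arrays in each group. The arrays of a time point shared 1 slide, so the time of selection and the slide cannot be told apart, whereas the shRNAs can be compared within a slide.

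The receptors are tyrosine kinases of the cell surface that act as pairs. EGFR, ERBB3 and ERBB4 bind ligands, ERBB2 has no known ligand and serves as the preferred partner of the others, and the kinase of ERBB3 is nearly inactive, so that ERBB3 signals through its partners. The ligands are made as membrane-bound precursors and released by metalloproteases such as ADAM17. AREG, TGFA and EGF bind EGFR, HBEGF, BTC and EREG bind EGFR and ERBB4, and NRG1 binds ERBB3 and ERBB4. The bound receptors feed the RAS and MAP kinase cascade and the PI3 kinase and AKT cascade, and in prostate epithelium the family is known for its part in growth that does not depend on androgen.

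The 250 bases before the start site were read from RefSeq (GRCh38.p14) for 8 of the 10 genes. Those of ERBB2 and ERBB4, whose signals were lower at 96 h, are shown beside those of EGFR, whose probe with the highest signal was not, and of AREG, whose 2 probes were both dimmer with ALKBH3 shRNA. Capitals mark matches on either strand. The TATA box was searched as TATAAA. For the CCAAT box, which is named for its letters, these were CCAAT. The GC box, a site of SP1-like factors, was taken as GGGCGG. The cyclic AMP response element was taken as TGACGTCA. For the binding site of AP-1 the letters were TGANTCA. For the site that ETS factors share they were CCGGAAG. Positions are counted back from the start site, with the last base before it as -1.
EGFR, chr7:55018767-55019016, plus strand: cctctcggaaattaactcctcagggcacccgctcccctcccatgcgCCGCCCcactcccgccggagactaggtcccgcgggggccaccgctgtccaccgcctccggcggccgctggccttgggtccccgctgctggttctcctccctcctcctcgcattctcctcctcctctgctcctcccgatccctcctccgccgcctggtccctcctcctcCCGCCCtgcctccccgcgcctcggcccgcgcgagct
ERBB2, chr17:39687844-39688093, plus strand: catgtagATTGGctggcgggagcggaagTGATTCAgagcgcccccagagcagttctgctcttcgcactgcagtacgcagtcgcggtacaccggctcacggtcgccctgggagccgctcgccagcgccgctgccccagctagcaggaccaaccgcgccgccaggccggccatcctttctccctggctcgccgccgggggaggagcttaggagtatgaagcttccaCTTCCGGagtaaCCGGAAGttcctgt
ERBB4, chr2:212538803-212539052, minus strand: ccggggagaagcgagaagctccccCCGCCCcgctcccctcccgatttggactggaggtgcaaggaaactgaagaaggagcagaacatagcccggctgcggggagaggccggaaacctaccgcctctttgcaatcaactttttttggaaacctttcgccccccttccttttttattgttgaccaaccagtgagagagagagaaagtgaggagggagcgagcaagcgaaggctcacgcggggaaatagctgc
AREG, chr4:74444886-74445135, plus strand: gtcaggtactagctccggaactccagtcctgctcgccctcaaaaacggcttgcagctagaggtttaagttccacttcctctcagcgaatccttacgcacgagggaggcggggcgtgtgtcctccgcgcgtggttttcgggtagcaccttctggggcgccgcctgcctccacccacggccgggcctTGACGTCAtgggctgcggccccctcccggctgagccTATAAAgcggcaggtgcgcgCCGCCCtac
The AREG stretch held a cyclic AMP response element from -65 to -58, a TATA box from -29 to -24 and a GC box from -9 to -4. Among all 35116 promoters of the table a match to the cyclic AMP response element stood in 1.65% and a match to the TATA box in 10.7%. The ERBB2 stretch held ETS sites at -26 to -20 and -14 to -8, a motif found in 8.52% of all promoters, together with an AP-1 site (6.57%) and a CCAAT box (32.0%). The EGFR stretch shown held 2 GC boxes and no TATA box, whereas the stretch before another EGFR start in the table (chr7:55109589-55109838, plus strand) held 2 TATA boxes, 2 AP-1 sites and no GC box. The ERBB4 stretch held 1 GC box, a motif that 42.6% of all promoters share. These matches describe letters and not bound sites.

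Signals are given throughout as the log2 intensity of a probe relative to the 75th percentile of its array, and differences as log2 fold changes between such signals. Signals of different probes cannot be set against each other. On an array 67.0% to 70.9% of probes were well above background, meaning that the image software had said so for at least 0.5 of their spots, and 0 spots were saturated. The ALKBH3 transcript was lower with its shRNA on both slides, with a mean signal of -2.44 against -0.82 in the controls and a log2 fold change of -1.63 (SE 0.12, limma adjusted p = 0.253, or 0.0264 with a replicate block for the time point). The epithelial markers KRT8, KRT18, EPCAM and CDH1 were well above background on all 4 arrays, whereas KLK3, which marks prostate luminal cells, was not well above background on any array.

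EGFR, the receptor of most of the ligands, had a slightly brighter signal with ALKBH3 shRNA at both time points. Its probe A_23_P215790 lay on 10 spots of each array and read -1.49 (control) and -1.25 (ALKBH3 shRNA) on the 48 h slide and -1.35 and -1.06 on the 96 h slide. Both ALKBH3 arrays were above both control arrays. The log2 fold change was 0.24 on the 48 h slide, 0.29 on the 96 h slide and 0.26 over all 4 arrays (SE 0.13, 95% interval -0.09 to 0.62, limma adjusted p = 0.723), or 1.20-fold. Replicate spots of this probe on 1 array differed with an SD of between 0.055 and 0.078. On the 48 h slide the EGFR spots ran from -1.63 to -1.37 with control shRNA and from -1.30 to -1.12 with ALKBH3 shRNA, and on the 96 h slide from -1.44 to -1.27 and from -1.15 to -0.95, so that the spots of the arrays on a slide did not overlap, although spots of 1 array share its RNA and are no replicates of the shRNA.

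EGFR is also read by probes to shorter transcripts, which encode receptors without the kinase part. The probe A_33_P3351944 had signals of -3.81 and -3.56 at 48 h and of -4.54 and -4.09 at 96 h, with control and ALKBH3 shRNA respectively, and its log2 fold change was 0.35 (adjusted p = 0.899 in limma, over all probes). The probe A_33_P3351955 read -6.03 and -5.47 at 48 h and -5.11 and -5.60 at 96 h. It was thus brighter with ALKBH3 shRNA by 0.56 at 48 h and had a log2 difference of -0.49 at 96 h, a reversal that no other EGFR probe showed. As all RNA of a culture was pooled, fewer cells with a transcript and less of it per cell cannot be told apart here or in any value below.

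For the other receptors the difference between the shRNAs was smaller than its standard error in the fit without a block, in which the spread between the slides counts as error. ERBB2 (probe A_23_P89249, 10 spots) read 0.76 (control) and 0.59 (ALKBH3 shRNA) on the 48 h slide and 0.30 and 0.20 on the 96 h slide, giving a log2 fold change of -0.13 (SE 0.23, 95% interval -0.75 to 0.48, limma adjusted p = 0.961). ERBB3 (probe A_23_P349416) read -0.76 and -0.65 at 48 h and -1.59 and -1.47 at 96 h, a log2 fold change of 0.12 (SE 0.40, limma adjusted p = 0.985). For both genes the groups overlapped, the arrays of a gene splitting by time point and not by shRNA. Another ERBB3 probe, A_33_P3211569, which is assigned to a short transcript for a secreted receptor, read -1.53 and -1.63 at 48 h and -2.12 and -2.35 at 96 h, so the log2 differences of the ERBB3 probes had opposite signs. ERBB4 (probe A_32_P183765), the neuregulin receptor with its own active kinase, read -3.00 and -3.19 at 48 h and -4.09 and -4.31 at 96 h, with a log2 fold change of -0.20 (SE 0.53, limma adjusted p = 0.980). The sign for ERBB2 and ERBB4 turned without the 48 h control array (0.10 and 0.35) and that for ERBB3 without the 48 h ALKBH3 array (-0.29), values that set arrays of different slides against each other, while the differences within the slides had the same sign for each of these probes. Single further probes of ERBB3 (A_33_P3280471) and ERBB4 (A_33_P3211558) were not well above background on any array.

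**Figure D1:**
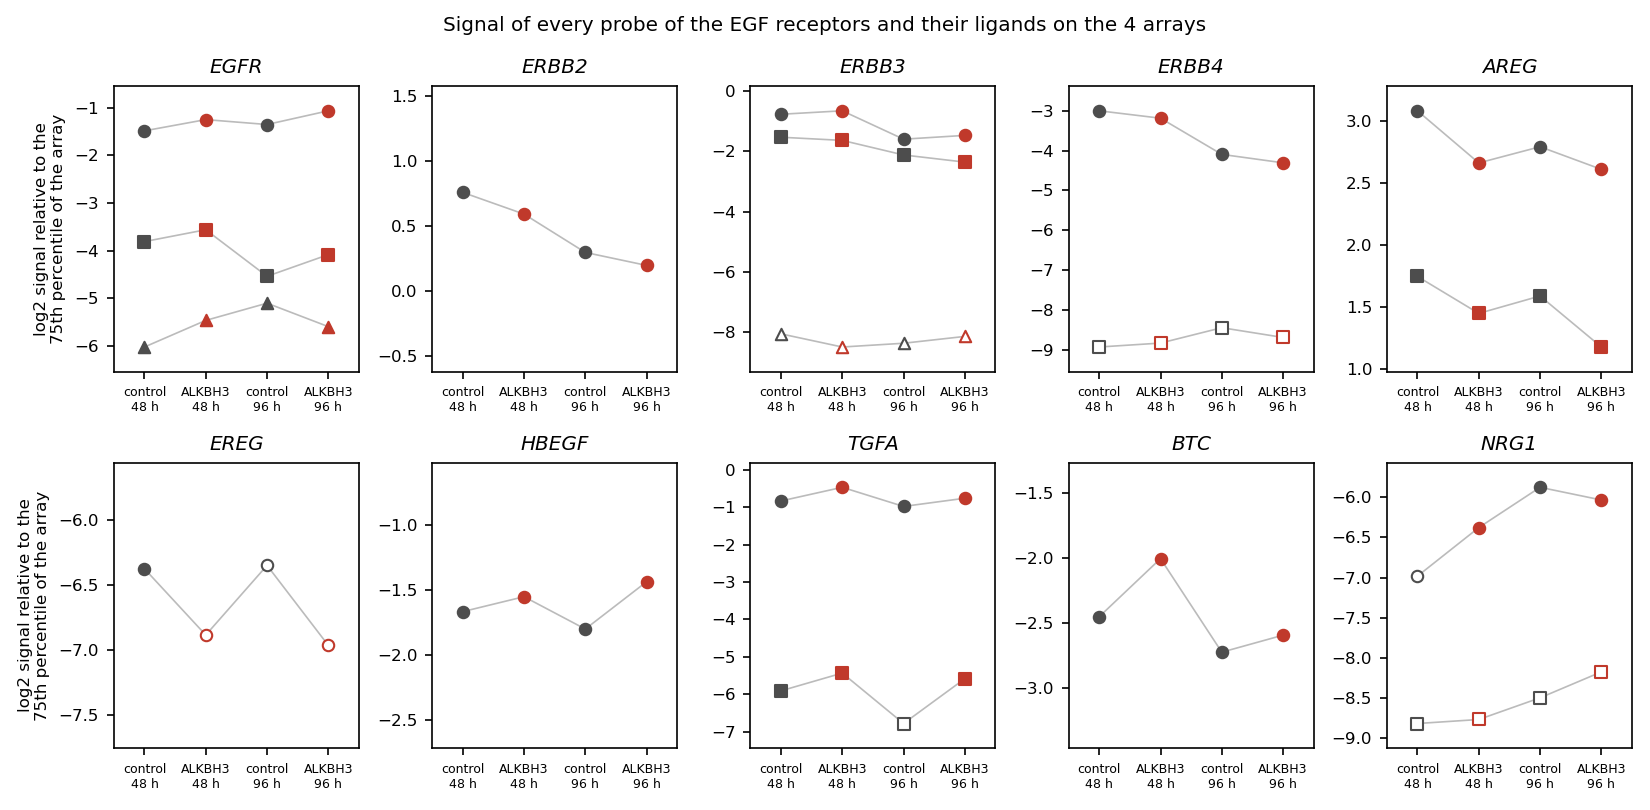
Signal of all 18 probes of the EGF receptors and their ligands, 1 panel for each gene. The vertical axis gives the log2 signal relative to the 75th percentile of the array on a scale of its own in each panel, the horizontal axis the 4 arrays, grey for control shRNA and red for ALKBH3 shRNA. Marker shapes separate probes of a gene, open markers were not well above background, and lines join the arrays of a probe. ERBB2, ERBB3 and ERBB4 step down between 48 h and 96 h at their probes well above background, while both AREG probes are lower on each ALKBH3 array than on the control array of the same slide.

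**Figure D2:**
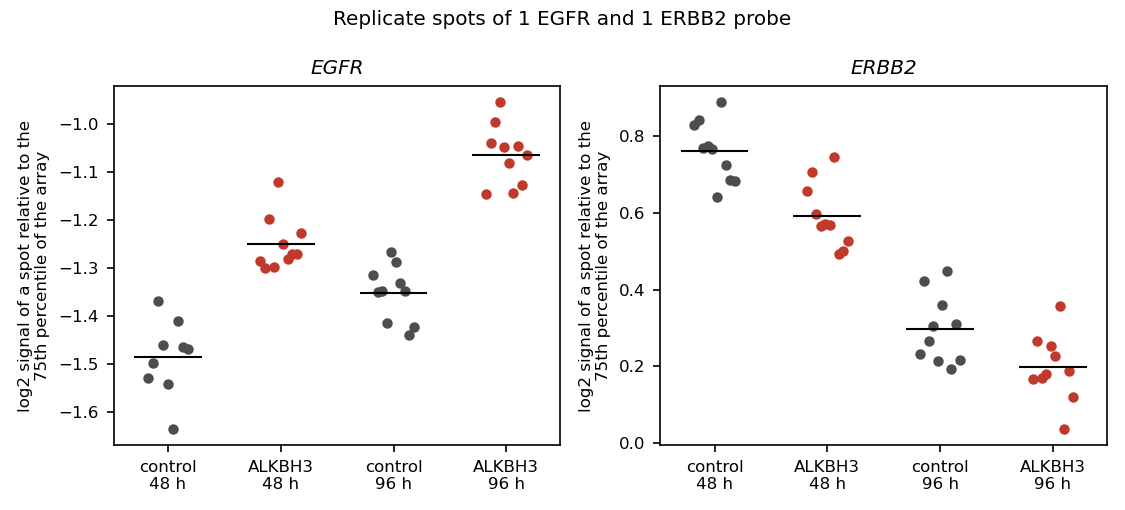
Signal of the replicate spots of the EGFR probe A_23_P215790 and the ERBB2 probe A_23_P89249 on the 4 arrays, as log2 signal relative to the 75th percentile of the array, with the mean as a line. On each slide the EGFR spots of the ALKBH3 array lie above those of the control array, whereas the ERBB2 spots of the shRNAs overlap and those of 96 h lie below those of 48 h.

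Among the ligands AREG was dimmer and HBEGF and TGFA were brighter on both ALKBH3 arrays than on either control array. AREG encodes amphiregulin, a ligand of EGFR. Its probe A_23_P259071 read 3.09 (control) and 2.66 (ALKBH3 shRNA) on the 48 h slide and 2.80 and 2.61 on the 96 h slide. The log2 fold change was -0.30 (SE 0.15, 95% interval -0.70 to 0.09, limma adjusted p = 0.704), a 1.23-fold difference, and -0.16 without the 48 h control array. The other AREG probe, A_33_P3419190, read 1.75 and 1.45 at 48 h and 1.59 and 1.17 at 96 h, which is a log2 fold change of -0.36 (adjusted p = 0.674 in limma, over all probes), so both AREG probes were dimmer with ALKBH3 shRNA on each slide.

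HBEGF encodes the heparin-binding ligand of EGFR and ERBB4. Its probe A_24_P140608 read -1.67 and -1.55 at 48 h and -1.80 and -1.44 at 96 h with control and ALKBH3 shRNA, a log2 fold change of 0.24 (SE 0.12, 95% interval -0.09 to 0.57, limma adjusted p = 0.730). TGFA encodes transforming growth factor alpha, another EGFR ligand. The TGFA probe A_33_P3408203 read -0.84 and -0.47 at 48 h and -0.98 and -0.76 at 96 h, a log2 fold change of 0.29 (SE 0.15, 95% interval -0.12 to 0.70, limma adjusted p = 0.738). It was 0.15 without the 48 h ALKBH3 array and 0.56 as the mean over the TGFA probes. The other TGFA probe, A_23_P377291, read -5.91 and -5.43 at 48 h and -6.78 and -5.58 at 96 h and was well above background on all arrays but the 96 h control array. It entered the test through the ALKBH3 arrays, where it was brighter, and its fitted log2 fold change of 0.84 (SE 0.31, limma adjusted p = 0.620 over all probes) takes in a control value that was not above background.

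The remaining ligands did not split by shRNA, or were too dim to be tested. BTC, which encodes betacellulin, read -2.45 (control) and -2.00 (ALKBH3 shRNA) on the 48 h slide and -2.72 and -2.59 on the 96 h slide. It was brighter with ALKBH3 shRNA by 0.45 at 48 h and 0.13 at 96 h, with a log2 fold change of 0.29 (SE 0.24, limma adjusted p = 0.878), and the 96 h ALKBH3 array overlapped the controls. Without the 48 h ALKBH3 array the BTC value was -0.005. NRG1, which encodes neuregulin 1, had 1 probe (A_23_P315815) above background on all arrays but the 48 h control array, with signals of -6.98 and -6.38 at 48 h and -5.88 and -6.03 at 96 h. This probe entered the test through the ALKBH3 arrays, so its value at 48 h is set against an undetected signal. Its log2 fold change was 0.60 on the 48 h slide, -0.16 on the 96 h slide and 0.22 over both (SE 0.40, limma adjusted p = 0.964), and it was -0.33 without the 48 h control array. The other NRG1 probe was not well above background on any array. EREG, which encodes epiregulin, read -6.38 and -6.89 at 48 h and -6.35 and -6.97 at 96 h and was well above background only on the 48 h control array. Both ALKBH3 arrays lay below both controls. EREG was not tested, and no fold is given.

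Of the 9 members tested, 0 passed the cutoffs of a 2-fold change and an unadjusted limma p below 0.05 in either direction. Over all 14556 genes tested 1.04% were called higher and 0.234% lower with ALKBH3 shRNA. No member had an unadjusted p below 0.05 in limma (8.33% of all genes) or in an unpaired Student test (7.26%), and 0 members passed an adjusted p of 0.05, the share among all genes also being 0%. With the time point fitted as a replicate block, 4 members had an unadjusted limma p below 0.05, EGFR, AREG, TGFA and BTC, beside 25.1% of all genes, but 0 passed an adjusted p of 0.05, which 4.46% of all genes did, the lowest adjusted p among the members being 0.133 for TGFA. EGFR, HBEGF and TGFA were higher and AREG was lower on both ALKBH3 arrays than on either control array, against 17.4% of all genes for higher and 19.1% for lower. The median log2 fold change was 0.22 for the 9 members, -0.01 for the 4 receptors and 0.24 for the 5 ligands tested. It was -0.003 for all genes, whose quartiles were -0.12 and 0.13. The median of the 9 members was the value of NRG1, whose probe entered the test through the ALKBH3 arrays. That probe was not well above background on the 48 h control array, and its value was 0.005 after normexp background correction. The 95% intervals of EGFR, ERBB2, AREG, HBEGF, TGFA and BTC exclude a 2-fold change in either direction, whereas those of ERBB3, ERBB4 and NRG1 reach past it. With the block, the intervals were -0.08 to 0.33 for ERBB3, -0.40 to 0.01 for ERBB4 and -0.31 to 0.76 for NRG1 and did not reach it.

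**Figure D3:**
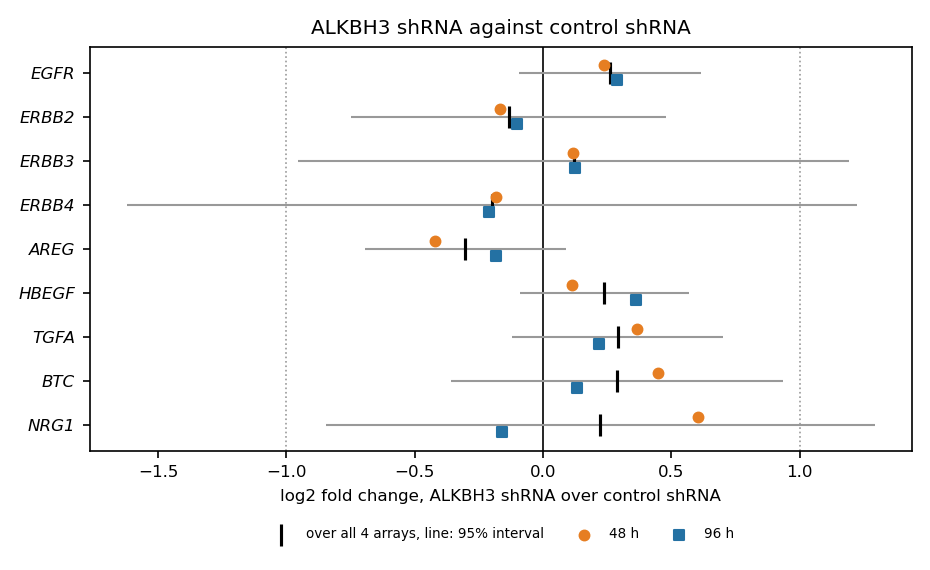
Log2 fold change of the 9 members tested, ALKBH3 shRNA over control shRNA. Black ticks are the values over all 4 arrays with their 95% limma intervals as grey lines, circles the 48 h slide, squares the 96 h slide, and dotted lines a 2-fold change. Every interval of this fit without a block includes 0, and NRG1 is the one member whose slides differ in sign. With the time point as a replicate block, which is not drawn, the intervals of EGFR, AREG and TGFA exclude 0. That of BTC then begins at 0 after rounding, with an unadjusted limma p of 0.0498.

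Between 48 h and 96 h of selection the receptors ERBB2, ERBB3 and ERBB4 were lower at the later time with either shRNA. The log2 difference of ERBB4 was -1.10 in control cells, -1.12 with ALKBH3 shRNA and -1.11 over all arrays (SE 0.13, limma adjusted p = 0.112), a 2.16-fold lower signal. For ERBB3 it was -0.83 and -0.82, respectively, and -0.82 over all arrays (SE 0.10, limma adjusted p = 0.112), or 1.77-fold. The other ERBB3 probe above background, A_33_P3211569, had a log2 difference of -0.66 over all arrays (limma adjusted p = 0.126, or 0.0234 with shRNA as a replicate block, both over all probes). ERBB2 had a log2 difference of -0.46 in control cells, -0.40 with ALKBH3 shRNA and -0.43 over all arrays (SE 0.11, limma adjusted p = 0.172), or 1.35-fold. A fit with shRNA as a replicate block gave an adjusted p of 0.0219 for ERBB4 and ERBB3 and of 0.0405 for ERBB2, so these 3 receptors passed there.

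EGFR was not lower at 96 h at the probe that stood for it, A_23_P215790, whose log2 difference between the time points was 0.16 (SE 0.15, limma adjusted p = 0.606). The probe A_33_P3351944 to a short EGFR transcript was lower at 96 h by a log2 difference of -0.63 (limma adjusted p = 0.213, or 0.0271 with shRNA as a replicate block, both over all probes), and the probe A_33_P3351955 had one of 0.92 with control and -0.13 with ALKBH3 shRNA. Averaging the EGFR probes turned the log2 difference to -0.02.

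Among the ligands, BTC was lower on both 96 h arrays, with a log2 difference of -0.43 (SE 0.18, limma adjusted p = 0.293), and its log2 difference was -0.21 after normexp background correction. NRG1 was higher on both 96 h arrays, with a log2 difference of 1.11 with control and 0.35 with ALKBH3 shRNA and 0.73 over all arrays (SE 0.23, limma adjusted p = 0.217). The probe entered the test through the 96 h arrays, where it was brighter, and was not well above background on the 48 h control array, so the value for control shRNA is set against an undetected signal. The value over all arrays was 0.10 after normexp correction with quantile normalization and 1.03 without the 48 h ALKBH3 array. AREG (-0.17), TGFA (-0.22) and HBEGF (-0.01) had log2 differences of less than 1.5 standard errors, and the limma adjusted p lay between 0.524 and 0.980 for these ligands. The HBEGF difference was positive under quantile normalization with or without normexp, under median centring, with the percentile over bright probes, in the values normalized by the authors and without the 48 h ALKBH3 or the 96 h control array, and that of AREG without the 48 h control array.

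Of the 9 members, ERBB4 alone passed the cutoffs, as lower at 96 h, and 0 passed as higher, whereas 0.79% of the 14559 genes tested were called lower and 0.247% higher. An unadjusted limma p below 0.05 was reached by 4 members, ERBB2, ERBB3, ERBB4 and the partly undetected NRG1, beside 19.3% of all genes, and by ERBB2, ERBB3 and ERBB4 in an unpaired Student test, beside 14.8%. No member passed an adjusted p of 0.05 without the block, the share among all genes being 0%, and 3 members passed with it, beside 13.4% of all genes. ERBB2, ERBB3, ERBB4 and BTC were lower and NRG1 was higher on both 96 h arrays than on either 48 h array, against 26.4% and 26.9% of all genes. The median log2 difference was -0.63 for the receptors and -0.17 for the ligands, beside -0.01 for all genes, whose quartiles were -0.18 and 0.16. ERBB4 did not pass the cutoffs after normexp background correction, where its log2 difference was -0.80, nor in the values normalized by the authors, where it was -0.95.

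Markers of several cell types were measured on the same arrays. Their summed linear signal, in multiples of the 75th percentile, was 51.0 (control) and 58.2 (ALKBH3 shRNA) on the 48 h slide and 52.1 and 54.0 on the 96 h slide for the 4 epithelial markers. The 4 fibroblast markers summed to 0.753 and 1.12 at 48 h and to 0.471 and 0.813 at 96 h, with COL1A2 not well above background on any array. The 4 blood markers, all well above background, summed to between 0.190 and 0.205, and the 4 endothelial markers to between 0.494 and 0.897. The fibroblast sum was thus lower on both 96 h arrays than on the 48 h array of the same shRNA, as were ERBB2, ERBB3 and ERBB4. The epithelial gene CDH1 moved the same way, with log2 signals of -0.12 (control) and 0.78 (ALKBH3 shRNA) on the 48 h slide and -1.28 and -0.71 on the 96 h slide. So did the luminal gene TMPRSS2, with log2 signals of 1.73 and 1.89 at 48 h and 1.22 and 1.29 at 96 h. Of the other epithelial markers, KRT8 and EPCAM were also lower at 96 h with either shRNA. KRT18 went the other way, with log2 signals of 5.30 and 5.27 at 48 h and 5.44 and 5.32 at 96 h. On each slide the epithelial and fibroblast sums were higher with ALKBH3 shRNA, as were EGFR, HBEGF and TGFA, and the endothelial sum was lower, as was AREG. Not every marker went with its sum. EPCAM and CDH1 were higher with ALKBH3 shRNA on both slides, but KRT18 was lower on both and KRT8 on the 96 h slide (1.59 and 1.55). The endothelial marker VWF was higher on both slides, while the other endothelial markers were lower on both. PDGFRA was lower on the 96 h slide (-3.54 and -3.87), while the other fibroblast markers were higher on both. The RNA came from cultures of a single cell line, so the sums are not read as shares of cell types. A link between these markers and the differences of the receptors and ligands was not tested.

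**Figure D4:**
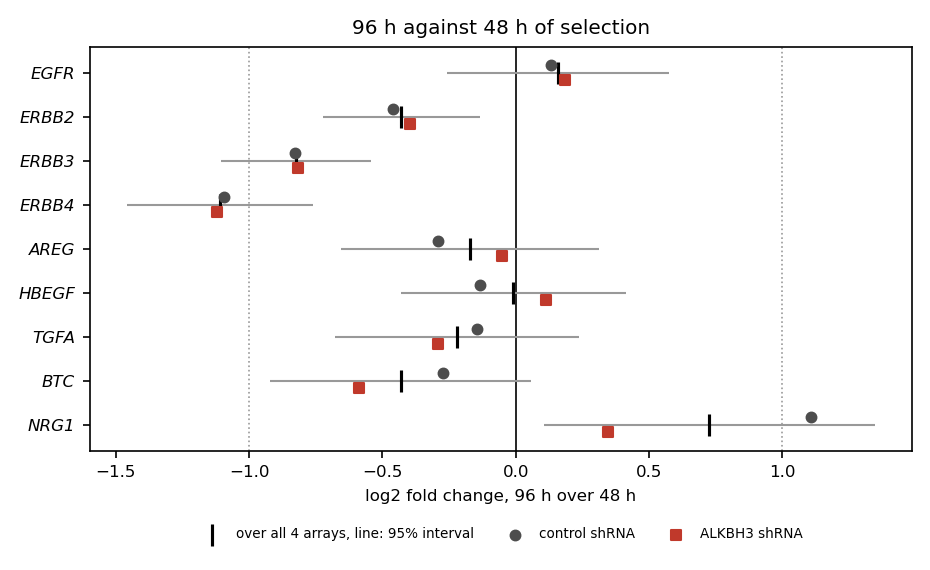
Log2 fold change of the 9 members tested, 96 h over 48 h of selection. Black ticks are the values over all 4 arrays with their 95% limma intervals as grey lines, circles control shRNA, squares ALKBH3 shRNA, and dotted lines a 2-fold change. The intervals of ERBB2, ERBB3 and ERBB4 lie below 0 and that of NRG1 above it, and over all 4 arrays ERBB4 alone is past a 2-fold change, while the control value of NRG1 also is, against a signal that was not above background.

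The genes around the receptors were followed in 5 lists, and with ALKBH3 shRNA 0 of the 58 genes tested passed the cutoffs in either direction. Over all genes 1.04% were called higher and 0.234% lower. With the time point as a replicate block, 0 genes of each list passed an adjusted limma p of 0.05, beside 4.46% of all genes. Other p-values of these lists are from the fit without the block unless stated. Of the 5 other ligands of the family, 3 were tested and 1 had an unadjusted limma p below 0.05, beside 8.33% of all genes. EGF, the founding ligand, read -5.13 (control) and -4.27 (ALKBH3 shRNA) on the 48 h slide and -4.58 and -4.25 on the 96 h slide, a log2 fold change of 0.60 (SE 0.21, limma adjusted p = 0.577). The log2 fold change of NRG2, a neuregulin, was -0.37 (limma adjusted p = 0.784), and NRG3 and NRG4 were not well above background on any array. With the block the limma adjusted p was 0.105 for EGF and 0.0896 for NRG2.

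All 8 genes of ligand shedding were tested, with a median log2 fold change of -0.03. An unadjusted limma p below 0.05 was reached by 2 of them, beside 8.33% of all genes. ADAM17, the main protease that releases AREG, TGFA and HBEGF, read -0.65 and -1.02 at 48 h and -0.69 and -1.28 at 96 h with control and ALKBH3 shRNA, which gives a log2 fold change of -0.48 (adjusted p = 0.505 in limma). ADAM19, a related protease, read 3.05 and 3.51 at 48 h and 2.69 and 3.34 at 96 h, which gives one of 0.55 (adjusted p = 0.529 in limma). With the block the limma adjusted p was 0.0736 for ADAM17 and 0.0541 for ADAM19. These proteases thus had differences of opposite sign, and the arrays of the shRNAs did not overlap for either. Among all genes 17.4% were higher and 19.1% lower on both ALKBH3 arrays than on either control array.

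The 23 receptor signal transducers tested had a median log2 fold change of -0.10, with 18 below 0 and 5 above it, and 14 were lower with ALKBH3 shRNA on both slides. Of all genes tested 50.6% lay below 0 and 35.6% were lower on both slides. The largest differences were those of PIK3CB, a catalytic subunit of PI3 kinase (log2 fold change -0.33), and SHC1, an adaptor of the active receptors (log2 fold change 0.30). They were the 2 genes of the list with an unadjusted limma p below 0.05, beside 8.33% of all genes. All 13 receptor inhibitors were tested, with a median log2 fold change of -0.02. CBLB and CBLC, ubiquitin ligases that mark active EGFR for breakdown, had log2 fold changes of -0.50 (adjusted p = 0.471 in limma) and 0.53. Both belonged to the 3 genes of the list with an unadjusted limma p below 0.05, beside 8.33% of all genes.

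Of the 13 transcripts that receptor signalling is known to induce, 11 were tested and 0 had an unadjusted limma p below 0.05, beside 8.33% of all genes. With the block DUSP4 had an unadjusted limma p of 0.0465, while 25.1% of all genes had one below 0.05. Their log2 fold changes reached from -0.21 for DUSP4 to 0.20, with a median of -0.08, and DUSP6 was next at -0.20. DUSP4 and DUSP6 encode phosphatases that switch off MAP kinases. The early response gene EGR1 was not well above background on any array.

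Between the time points 0 of the 59 genes tested passed the cutoffs, beside 0.79% of all genes called lower and 0.247% called higher. EPGN, the ligand epigen, was lower at 96 h by a log2 difference of -0.68 (limma adjusted p = 0.157, or 0.0431 with shRNA as a replicate block) and NRG2 by -0.41 (adjusted p = 0.0486 with the block). JUNB, a subunit of AP-1, had a log2 difference of -0.44 (limma adjusted p = 0.144, or 0.0381 with the block), and FOS, which was well above background at 48 h and on neither 96 h array and so entered the test through the brighter time point, had a fitted one of -0.37 without passing either. ADAM10, another protease that releases ligands, had a log2 difference of -0.34 and ADAM19 of -0.26, the inhibitors RNF41 and LRIG1 of -0.44 and -0.43, and the RAS genes NRAS and HRAS of 0.30 and 0.28, of which 0 passed an adjusted limma p of 0.05 with or without the block. The genes of these lists that passed with the block were thus the ligands EPGN and NRG2 and the induced transcript JUNB. Of all genes 13.4% passed there.

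**Figure D5:**
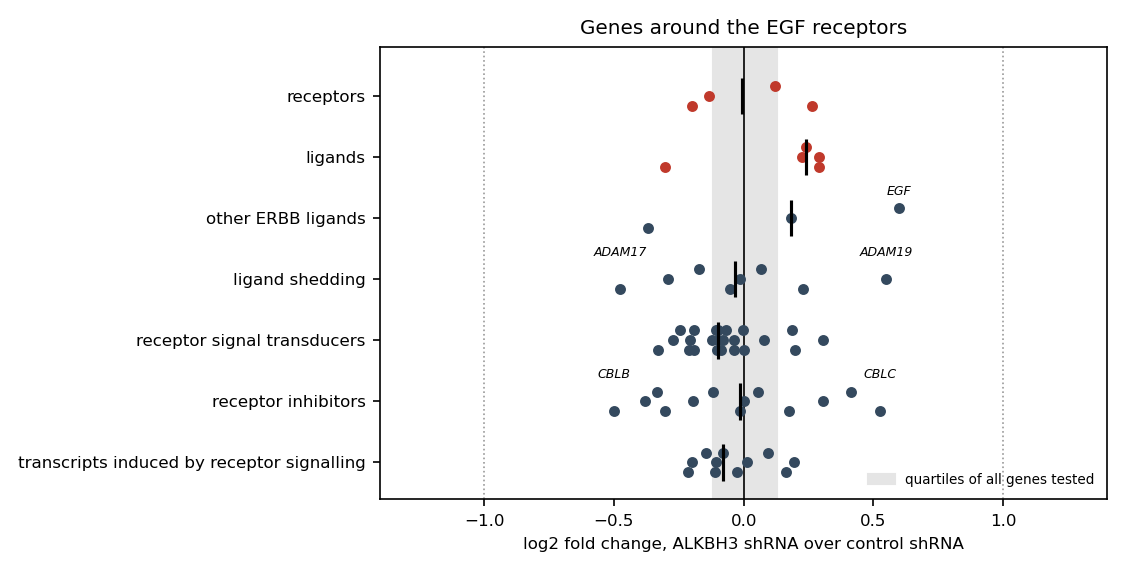
Log2 fold change, ALKBH3 shRNA over control shRNA, of the tested receptors and ligands (red) and of the tested genes of the 5 lists around them (blue). Each point is a gene, black ticks are medians, the shaded band spans the quartiles of all genes tested, and dotted lines mark a 2-fold change. All points lie within the dotted lines, and the labelled genes EGF, ADAM17, ADAM19, CBLB and CBLC reach farthest from 0.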

How the data were processed

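RNA of PC3 cells was measured on 4 single-colour Agilent arrays. The authors deposited spot intensities made on each array alone by Agilent Feature Extraction (version 10.7.3.1 per the file headers), with background subtracted and no normalization between arrays, and a table of log2 values that the authors had normalized between arrays with limma, which served as an alternative. Groups came from the sample titles.

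Spots marked as non-uniform or as outliers (180 to 379 on an array) were removed, log2 intensities were centred on the 75th percentile of each array, and spots of a probe were averaged. The spot tables used here carry accessions and no gene names, so 24910 of 34127 probes were named by matching accessions to RefSeq genes (GRCh38.p14). A probe was tested if both arrays of 1 shRNA or more (for the time comparison, of 1 time point or more) had it well above background, and the tested probe with the highest mean signal stood for a gene. This filter passed 9 of 10 members, all but EREG. The software was limma 3.58.1, run in R 4.3.3. Groups were compared with limma (lmFit and eBayes, 2 arrays against 2, no covariate) over all genes, with Benjamini-Hochberg adjustment. A call needed a 2-fold change with p below 0.05 before adjustment. Values of further probes of a gene came from a fit over all probes. The steps were tested on simulated data, in which the arrays were drawn independently with no effect of slide or time. The simulation therefore does not bear on the pairing of the arrays. Precision is limited by the number of arrays.

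Named were all members at every probe, ALKBH3, and of each list around the receptors the genes called and the 2 with the largest fold change; the others were chosen after their values were seen. Some listed genes are not reported here. Members and lists were chosen with earlier results of these data known. As a check of pairing, the difference between the time points correlated between the shRNAs (Pearson r = 0.705 across 22126 probes, which are not independent replicates), and both arrays of a time point share a slide. Alternatives were the normexp correction at an offset of 50, alone or followed by quantile normalization, the latter alone, median centring, a percentile taken only over probes that no array had near background, the values normalized by the authors, other filters, the mean over probes, probes in place of genes, a replicate block, an unpaired Student test, a 1.5-fold cutoff, a 2-fold change in both pairs with no test, and leaving out each array.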

Additional observations from a re-analysis of the deposited data

Results flagged for a closer look

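The difference between ALKBH3 and control shRNA had opposite signs on the 2 slides for a pair of probes. For the EGFR probe A_33_P3351955, to a short transcript, the log2 fold change was 0.56 on the 48 h slide and -0.49 on the 96 h slide, which are 1.05 apart. For the NRG1 probe A_23_P315815 it was 0.60 and -0.16, which are 0.76 apart, and the probe was not well above background on the 48 h control array. Each value compares 1 array with 1 array, so the difference between the time points was not tested.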

How the results depend on the processing

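The count of members called with ALKBH3 shRNA stayed at 0 in both directions under every alternative run. For the genes around the receptors the count called higher was 1 with no filter on dim probes (EGR1) and 1 with a 1.5-fold cutoff (EGF). At 96 h, 0 members were called lower with normexp background correction, 0 with normexp and quantile normalization, 0 with the values normalized by the authors, and 2 with a 1.5-fold cutoff (ERBB3 and ERBB4). The count called higher at 96 h was 1 with a 1.5-fold cutoff (NRG1) and 0 to 1 when arrays were left out in turn, being 1 without the 48 h ALKBH3 array. With a replicate block no count of calls past the cutoffs moved among the members (0 higher and 0 lower with ALKBH3 shRNA, 1 lower at 96 h). At the probes that stood for genes, the adjusted p crossed 0.05 only for ERBB2, ERBB3 and ERBB4 between time points. Of their further probes, EGFR A_33_P3351944 (limma adjusted p = 0.0271) and ERBB3 A_33_P3211569 (0.0234) also crossed it there, over all probes.

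Signs of small log2 fold changes flipped. With ALKBH3 shRNA the range over the arrays left out in turn was -0.37 to 0.10 for ERBB2 (above 0 without the 48 h control or the 96 h ALKBH3 array), -0.29 to 0.54 for ERBB3 (below 0 without the 48 h ALKBH3 or the 96 h control array), -0.76 to 0.36 for ERBB4 (above 0 without the 48 h control or the 96 h ALKBH3 array), -0.005 to 0.584 for BTC (below 0 without the 48 h ALKBH3 array) and -0.33 to 0.78 for NRG1 (below 0 without the 48 h control array). These values set arrays of different slides against each other. Within the slides the differences had the same sign for ERBB2, ERBB3, ERBB4 and BTC, at the probes that stood for them, and opposite signs for NRG1. For ERBB3 the mean over probes gave -0.025. Between time points the mean over probes gave -0.024 for EGFR. AREG ranged from -0.38 to 0.04 (above 0 without the 48 h control array). HBEGF was 0.018 with normexp and quantile normalization, 0.028 with quantile normalization, 0.046 with median centring, 0.007 with the percentile taken over probes that were bright on all arrays, 0.027 with the values normalized by the authors, and -0.19 to 0.17 with arrays left out (above 0 without the 48 h ALKBH3 or the 96 h control array). The cause was not tested. Leaving out an array leaves 1 array in a group, which is assumed to vary like the other group.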
